A study of Canis lupus familiaris with 31 samples.

Results

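The genes described here are 9 genes of neutrophil granules and of the cells that fill them (CD177, CAMP, LTF, LCN2, MMP8, MMP9, BPI, CEBPE and MPO) together with SLPI, which encodes an inhibitor of the proteases in those granules. They were taken by gene symbol from the 32704 rows of a table of gene counts, in which each of the 10 symbols had 1 row. Counts for 9 of the 10 were high enough to be tested among the 13918 genes that passed a filter on low counts, and SLPI was not. MPO and SLPI are genes that the study itself selected on the comparison between its groups, so their values between groups are a description, and where they enter a count of genes called, that is no test of them. The other 8 were proposed with results of that comparison known. RNA was measured in the whole blood of 31 Miniature Schnauzers, of which 13 were cases with HTG, a raised level of triglycerides in the blood, and 18 were controls. There were 5 females and 8 males among the cases, and 8 females and 10 males among the controls. All were older client-owned dogs bled after a fast, and each gave 1 library, so that the spread between samples is a spread between dogs. Both groups thus share breed and tissue, and they were set apart by a blood lipid and not by an experimental treatment. The paper also gives a higher median cholesterol in the cases. It names small imbalances in age and sex, which were not significant.

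Neutrophils are the most abundant white cells of dog blood and carry their proteins in granules that are filled in sequence while the cell matures in the bone marrow. MPO and the serine proteases are made early, for azurophil granules, lactoferrin and the cathelicidin later, for specific granules, and gelatinase later still, and the messenger RNA of most of these proteins is largely gone from the mature neutrophil that circulates. RNA of granule proteins in blood is therefore known for its link to young neutrophils leaving the marrow, as happens in inflammation, stress and treatment with growth factors. In whole blood, however, more cells of a type and more RNA per cell cannot be told apart.

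The gene counts of a dog summed to between 14524659 and 41533599, and levels are given as CPM, the counts scaled to a common library size, after normalization with the TMM method. Markers of mature neutrophils were present in every dog, at a summed level of 6811 to 11737 CPM in the cases and 4751 to 18251 CPM in the controls, and CSF3R, the receptor for the growth factor of neutrophils, had a median of 3700 CPM in the cases and 3604 CPM in the controls. The dogs also fell on 2 sides by 365 rows named after small RNAs, with 10 dogs (5 cases and 5 controls) whose mean over these rows was 1.66 log2 CPM or more, while in the other 21 dogs (8 cases and 13 controls) it was 1.40 or less. The study ran a pilot batch of dogs, which the labels do not name. The side rich in small RNA has the make-up of cases and controls that the methods give for the pilot, but whether it is the same dogs was not tested. Folds of the members on each side are given beside the pooled ones.

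**Figure D1:**
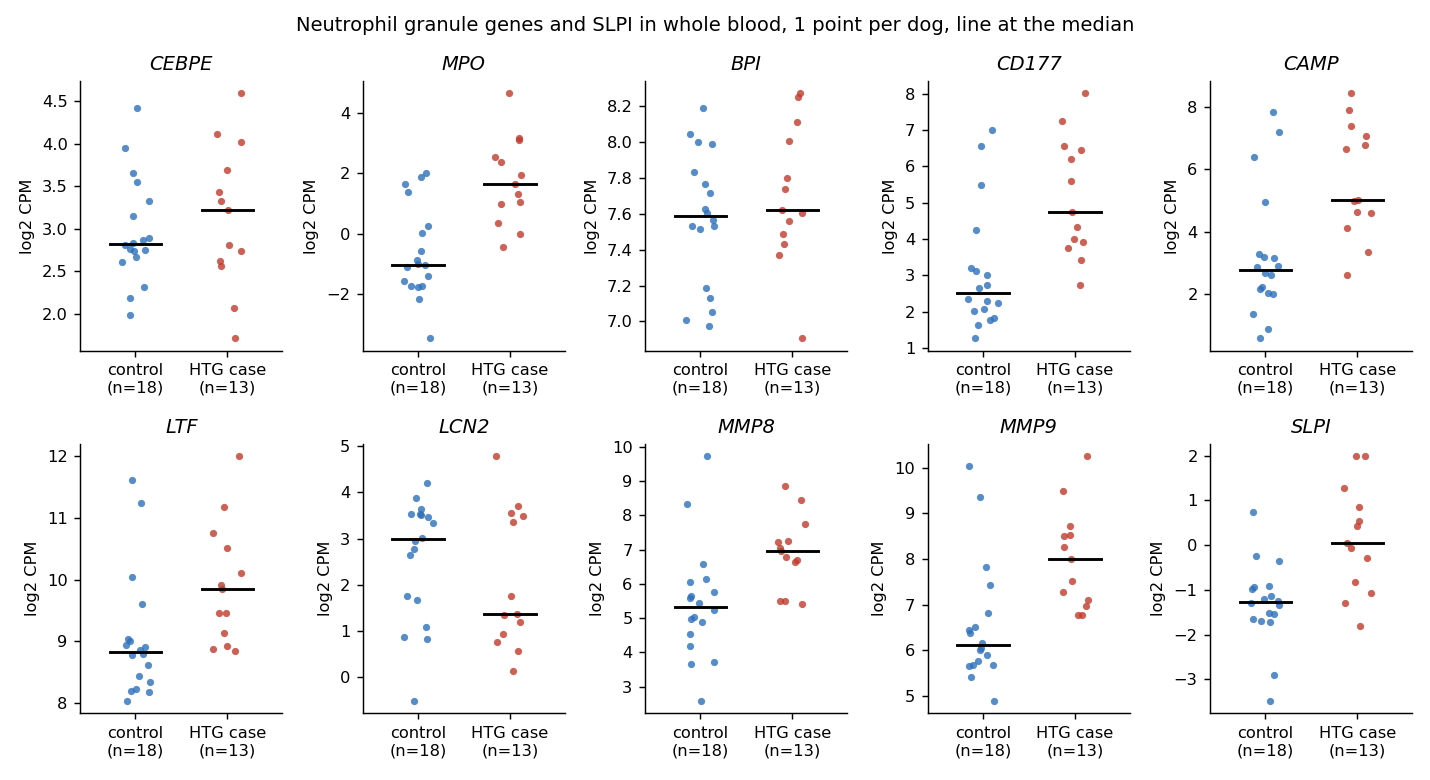
Level of each of the 10 genes in every dog, as log2 CPM on an axis of its own for each gene, in 18 controls (blue) and 13 HTG cases (red), with a line at the median of the group. The groups overlapped for every gene, and the medians of MPO, CD177, CAMP, LTF, MMP8, MMP9 and SLPI were higher in the cases while that of LCN2 was lower.

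The first question was how the genes differed between HTG cases and controls. The level of 8 of the 9 tested genes was nominally higher in the cases, LCN2 being the exception. Over all genes tested, 45.5% had a log2 fold change above 0. None of the 9 passed the threshold of an adjusted p of 0.05 in edgeR's quasi-likelihood test with Benjamini-Hochberg adjustment over all genes. That test called 5 genes of the whole table, or 0.0359%. At an unadjusted p under 0.05, 4 of the 8 genes the study did not select passed, all higher in the cases (CD177, CAMP, LTF and MMP9), where 1365 of all genes, or 9.81%, passed, with 5.04% higher and 4.76% lower in the cases. Because the genes were chosen with this comparison in view, nothing can be read from these counts. The median log2 fold change was 0.77 over the 9 genes, 0.71 over the 8 the study did not select and -0.02 over all genes tested. DESeq2 called 85 genes, or 0.526% of those it tested, and 0 of the same 8, and limma-voom called 0 members and 0 genes of the table, with 6 members and 1556 genes, or 11.2%, at an unadjusted p under 0.05. Limma-voom gave other folds for several members, which are set beside those of edgeR where they differ by more than 1.5 times. The differences below are log2 fold changes of cases over controls with their standard errors.

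CEBPE encodes the transcription factor C/EBP epsilon, which drives the late steps of granulocyte maturation and the genes of specific granules. Its level ranged from 3.19 to 24.0 CPM in the cases (median 9.25), and from 3.89 to 21.2 CPM in the controls (median 6.96). The groups covered almost the same range, and 7 of 13 cases were above the control median. The log2 fold change was 0.26 ± 0.25 (SE, n = 13 and 18, edgeR adjusted p = 0.781). On the side rich in small RNA (10 dogs) it was 0.78 ± 0.40 and on the other (21 dogs) -0.12 ± 0.29, a difference between the sides that was not tested. Limma-voom gave 0.15 ± 0.24 over all dogs.

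MPO, which encodes the myeloperoxidase of azurophil granules, had the largest difference of the 9 tested genes, and it is one of the genes the study selected. Its level ran from 0.646 to 25.3 CPM in the cases (median 3.05), and from 0 to 3.92 CPM in the controls (median 0.401). All 13 cases were above the control median, 5 of them were above the highest control, and 12 controls were below the lowest case. These were few reads, with a median of 61 counts per case and 9 per control, and control 5 had a count of 0, which allows a level of up to 0.129 CPM. The log2 fold change was 2.43 ± 0.56 over all dogs, 2.04 ± 0.87 on the side rich in small RNA and 2.65 ± 0.68 on the other side.

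BPI encodes the bactericidal/permeability-increasing protein, which binds the endotoxin of bacteria and is stored in azurophil granules. It varied little, from 119.8 to 309 CPM in the cases (median 197) and from 126 to 292 CPM in the controls (median 192). The groups overlapped over nearly their whole range, and the log2 fold change was 0.14 ± 0.13 (edgeR adjusted p = 0.786). By side it was 0.04 ± 0.25 and 0.21 ± 0.14, the side rich in small RNA being given first here and below.

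The genes of specific granules came next. CD177, a glycoprotein held in specific granules and on the surface of neutrophils, ranged from 6.62 to 257 CPM in the cases (median 26.6), and from 2.31 to 129 CPM in the controls (median 5.62). All 13 cases were above the control median and 11 controls were below the lowest case, while 3 controls lay above the case median. The fitted log2 fold change was 1.66 ± 0.62 (edgeR adjusted p = 0.337), and 2.08 ± 0.77 and 1.63 ± 0.81 by side.

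CAMP encodes the cathelicidin precursor, from which an antimicrobial peptide is cut. It reached from 5.97 to 346 CPM in the cases (median 32.0), and from 1.40 to 229.6 CPM in the controls (median 6.73). The groups overlapped, with 12 of 13 cases above the control median and 3 controls above the case median. Its log2 fold change was 1.61 ± 0.71 (edgeR adjusted p = 0.444), and 2.12 ± 0.96 and 1.51 ± 0.91 by side. It was 2.56 ± 0.65 with limma-voom (adjusted p = 0.111).

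LTF, the gene of the iron-binding protein lactoferrin, was present at 459 to 4103 CPM in the cases (median 924), and at 261 to 3117 CPM in the controls (median 455). All 13 cases were above the control median and 9 controls were below the lowest case. A log2 fold change of 0.77 ± 0.38 was estimated (edgeR adjusted p = 0.51), and 1.03 ± 0.35 and 0.76 ± 0.52 by side.

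LCN2, which encodes a lipocalin that binds bacterial iron carriers and is likewise a specific granule protein, went the other way by its median. It ran from 1.01 to 27.5 CPM in the cases (median 2.51), and from 0.611 to 18.4 CPM in the controls (median 7.80). The highest level of all was in a case and the lowest in a control, and 14 of 18 controls lay above the case median. The log2 fold change was -0.19 ± 0.45 (edgeR adjusted p = 0.929), and 0.04 ± 0.78 and -0.40 ± 0.54 by side. It was -0.57 ± 0.51 with limma-voom (adjusted p = 0.719), and the difference between the group medians was -1.60 on the log2 scale. The levels had a gap of 0.89 log2 units in the middle, between 3.28 and 6.15 CPM, with 8 cases and 6 controls below it and 5 cases and 12 controls above it.

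MMP8 and MMP9 encode the collagenase and the gelatinase of neutrophils, 2 metalloproteinases that cut the proteins of connective tissue. MMP8 ranged from 42.5 to 461 CPM in the cases (median 123), and from 5.89 to 848 CPM in the controls (median 40.5). No case exceeded the highest control, and 9 controls were below the lowest case. Its log2 fold change was 0.64 ± 0.55 (edgeR adjusted p = 0.747), and 1.47 ± 0.43 and 0.52 ± 0.75 by side. Limma-voom gave 1.50 ± 0.49 (adjusted p = 0.231), and the group medians differed by 1.61 on the log2 scale.

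For MMP9 the range was 109 to 1224 CPM in the cases (median 254), and 29.4 to 1043 CPM in the controls (median 68.9). Of the controls, 13 were below the lowest case and 2 were above the case median. Cases and controls differed by a log2 fold change of 1.05 ± 0.49 (edgeR adjusted p = 0.475), and 1.81 ± 0.47 and 0.91 ± 0.65 by side.

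SLPI encodes the secretory leukocyte protease inhibitor, which blocks neutrophil elastase and cathepsin G, and it too was selected by the study. It had few reads, with 3 to 82 counts per case and 0 to 19 per control. Its level was 0.198 to 3.89 CPM in the cases (median 0.946), and 0 to 1.57 CPM in the controls (median 0.324). Of the dogs, 11 of 13 cases were above the control median, 4 cases were above the highest control, and 1 control was above the case median. The log2 fold change in a fit without the filter on low counts was 1.88 ± 0.41. On the side rich in small RNA, where it passed the filter, it was 1.25 ± 0.65. The count of 0 in control 16 allows a level of up to 0.153 CPM.

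**Figure D2:**
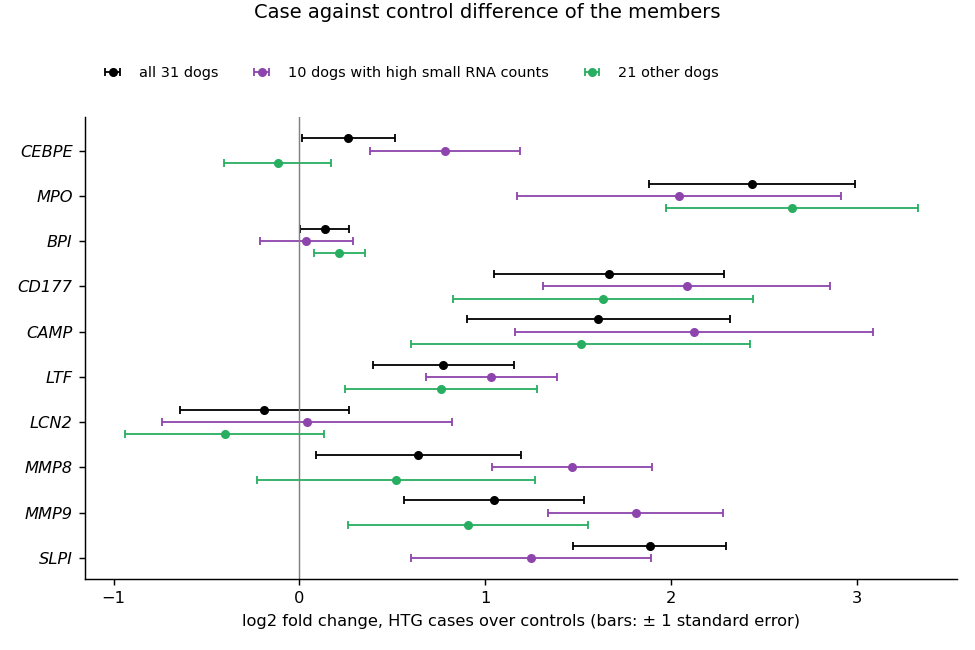
Log2 fold change of cases over controls for the 10 genes, with bars of 1 standard error, over all 31 dogs (black), in the 10 dogs rich in small RNA (purple) and in the 21 other dogs (green). SLPI is shown from the fit without the filter for all dogs and passed the filter only among the 10 dogs, and MPO, CD177, CAMP, LTF, MMP8 and MMP9 were above 0 on both sides while CEBPE and LCN2 changed sign between them.

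A few dogs set much of the size of these differences. Case 11 had the highest level of all 31 dogs for MPO, CD177, CAMP, LTF, MMP9 and SLPI, and it was among the 5 highest dogs for 9 of the 10 genes, LCN2 being the exception. Case 1 was among the 5 highest for 8 genes, control 9 for 7 and control 12 for 5. In case 11 CAMP stood at 346 CPM and LTF at 4103 CPM, in case 1 at 241 and 2326 CPM, in control 12 at 229.6 and 3117 CPM, and in control 9 at 146 and 2420 CPM. High levels of these genes were thus found in single dogs of both groups.

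Leaving out 1 dog at a time moved the folds of the same genes. CAMP had a log2 fold change of 1.25 without case 11 and 2.28 without control 12, CD177 of 1.24 and 2.23, and LTF of 0.46 and 1.09 without the same dogs. MMP8 moved from 0.38 without case 11 to 1.49 without control 9, and MMP9 from 0.70 to 1.59 without the same dogs. CEBPE stood at 0.09 without case 7, its highest case, and at 0.40 without control 9. LCN2 stood at -0.61 without case 13 and at -0.07 without control 17. None of these 7 genes passed the threshold with any 1 of the 31 dogs left out, and their lowest edgeR adjusted p was 0.114, for MMP9 without control 9.

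The genes were also far apart in how much they varied between dogs. The SD of log2 CPM over the 31 dogs was 2.28 for CAMP, 1.93 for CD177, 1.90 for MPO, 1.59 for MMP8, 1.42 for MMP9, 1.39 for LCN2 and 1.07 for LTF, against a median of 0.37 over all genes tested. These values lay at the 99.9th percentile of all tested genes for CAMP, the 99.8th for CD177 and for MPO, the 99.3rd for MMP8, the 98.7th for MMP9, the 98.5th for LCN2 and the 94.9th for LTF. CEBPE, at 0.71, stood at the 80.5th percentile and BPI, at 0.38, at the 52.0th. From its lowest to its highest dog, CAMP spanned 248-fold, MMP8 144-fold, CD177 111-fold and LTF 15.7-fold, and BPI spanned 2.58-fold. The spread was present within each group, the SD of CAMP being 1.83 among the cases and 2.06 among the controls.

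The next question was whether the genes followed each other from dog to dog. For each of the 45 pairs, Spearman's rho of log2 CPM over the 31 dogs was tested with a two-sided permutation test with 100000 resamples and adjusted over the 45 pairs. The test called 28 pairs, all of them with a positive rho, and the lowest rho among them was 0.44. A rho at least that far from 0 was found for 10.4% of all pairs of tested genes. The median rho was 0.64 over the 45 pairs and -0.0008 over all gene pairs, of which the middle part lay between -0.18 and 0.18 by quartiles, and 0.96% of all gene pairs reached 0.64. Libraries, depth and cell makeup are shared by all genes of a dog.

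**Figure D3:**
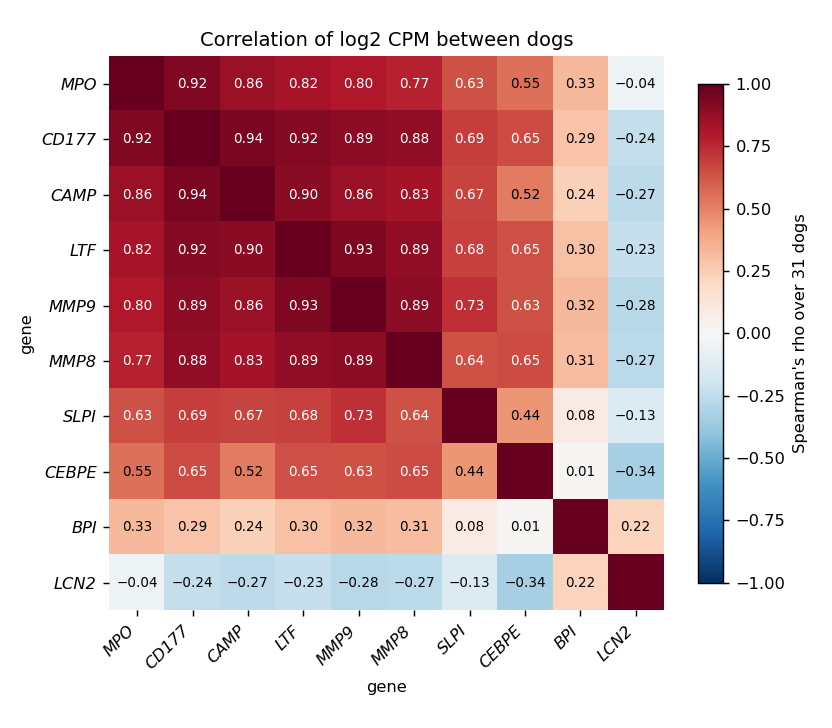
Spearman's rho between dogs for each pair of the 10 genes, over 31 dogs, with red for positive and blue for negative values and the value printed in each cell. The 6 genes at the top left form a block of 0.77 to 0.94, SLPI and CEBPE follow it at lower values, and BPI and LCN2 stand apart.

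The closest set, put together after the values were seen, was MPO, CD177, CAMP, LTF, MMP8 and MMP9. Their 15 pairs had a rho of 0.77 to 0.94 with a median of 0.89, and each had a permutation p of 1e-05, the smallest these permutations can give. The highest was between CD177 and CAMP, with rho = 0.94 and Pearson's r = 0.97 (adjusted permutation p = 2.65e-05 and 2.25e-05), and r was 0.97 without the 2 dogs farthest from the median of CD177. The lowest was between MPO and MMP8, at rho = 0.77 and r = 0.74. MPO, the early azurophil granule gene, therefore ran with genes of the later granules, most closely with CD177 at rho = 0.92.

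These relations were found in both groups. The 15 pairs had a rho of 0.54 to 0.99 within the cases and 0.58 to 0.86 within the controls. On the side rich in small RNA they had 0.72 to 0.98, and on the other side 0.69 to 0.94. The levels of CAMP had a gap of 1.40 log2 units between 32.0 and 84.4 CPM, with 9 dogs above it (6 cases and 3 controls), and the same 9 dogs were above the largest gap of CD177. Among the 22 dogs below that gap the 15 pairs had a rho of 0.55 to 0.87, and among the 9 above it 0.17 to 1, so the genes followed each other also away from the dogs with the highest levels.

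SLPI followed this set at a distance. Its rho with the 6 genes was 0.63 to 0.73 and passed the threshold with each. The closest was MMP9, with rho = 0.73 and r = 0.72 (adjusted permutation p = 2.65e-05 and 2.25e-05), and r was 0.77 without the 2 dogs farthest from the median of MMP9. Within the cases SLPI and MMP9 had rho = 0.68 (r = 0.80) and within the controls 0.70 (r = 0.48). The rho of SLPI with MPO was 0.58 within the cases and 0.38 within the controls, where its unadjusted permutation p was 0.122. With CAMP it was 0.81 within the cases and 0.43 within the controls, where the unadjusted permutation p was 0.0791. Several controls had only a handful of SLPI counts, as given above.

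CEBPE had a rho of 0.52 to 0.65 with the 6 genes and passed with each, and of 0.44 with SLPI (adjusted permutation p = 0.0224). With MMP8 it had rho = 0.85 within the cases and 0.56 within the controls, and with CAMP 0.74 and 0.28. On the side rich in small RNA its rho with the 6 genes was 0.55 to 0.84, and on the other side it was 0.33 to 0.48.

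BPI was not called with any of the other 9 genes by rho. Its rho with the 6 genes was 0.24 to 0.33 (adjusted permutation p from 0.108 to 0.228), and by Pearson's r it passed with MMP8 alone, at 0.42 (adjusted permutation p = 0.0268). The sides differed in value, with a rho of 0.54 to 0.62 among the 21 dogs and of -0.16 to 0.14 among the 10 dogs, a difference that was not tested.

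LCN2 was not called with any of the other 9 genes. Its rho with the 6 genes was -0.28 to -0.04 (adjusted permutation p from 0.167 to 0.854), and the lowest of all 45 pairs was with CEBPE, at rho = -0.34 (adjusted permutation p = 0.105). Since its levels fell on 2 sides of a gap, the sides were also looked at alone. Among the 14 dogs below the gap its rho with the 6 genes was 0.27 to 0.40, and with BPI 0.67. Among the 17 dogs above it the rho was -0.02 with CAMP, 0.15 to 0.25 with the others of the 6, and 0.28 with BPI. The negative values over all dogs were thus not seen within the sides, except for CAMP above the gap, and this was not tested. Case 11, the highest dog for the closest set, had 3.27 CPM of LCN2, below the gap.

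**Figure D4:**
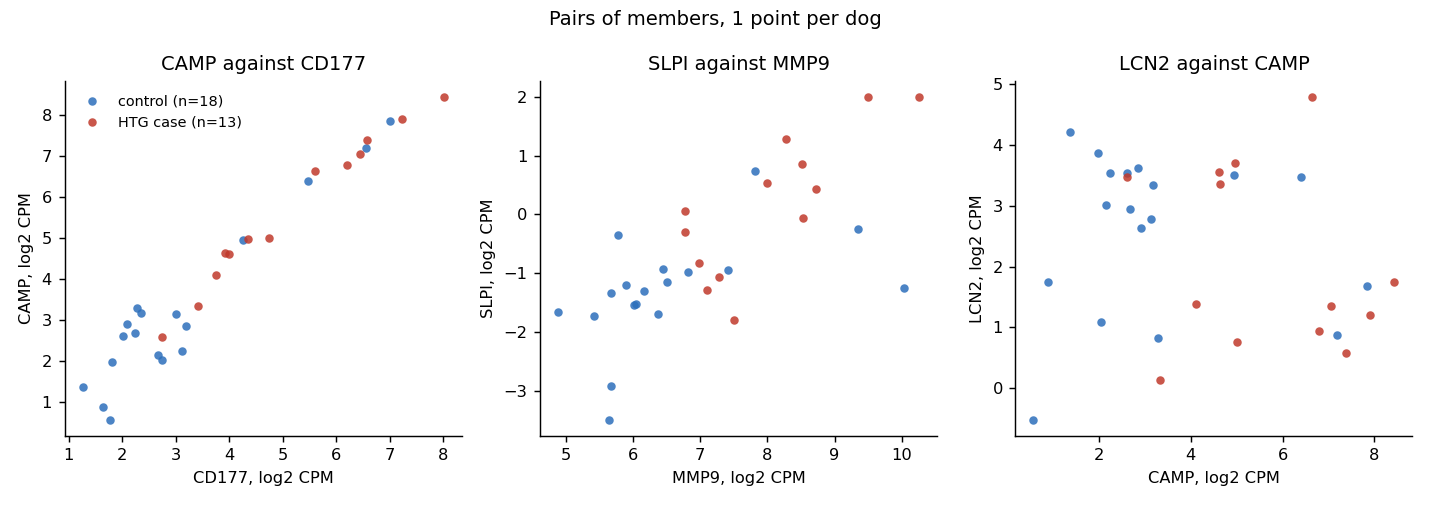
Log2 CPM of CAMP against CD177, SLPI against MMP9 and LCN2 against CAMP, with 1 point for each of 18 controls (blue) and 13 HTG cases (red). CAMP and CD177 lie along 1 line in both groups (rho = 0.94), SLPI and MMP9 scatter more widely (rho = 0.73), and the dogs with the highest CAMP mostly have low LCN2.

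Among all other tested genes with a symbol, those most like each member by rho over the 31 dogs were shared by several members. C3, the central component of complement, was among the 3 closest genes for 6 members and CP, the copper protein ceruloplasmin, and PTX3, a pentraxin stored in specific granules, were among them for 4 and 5 members. C3 had a rho of 0.97 with CD177 and 0.92 with MPO, PTX3 of 0.95 with CAMP, and CP of 0.92 with LTF. HK3, a hexokinase of myeloid cells, was the closest to MMP8 at 0.91, before C3 at 0.90 and FADS1, a fatty acid desaturase, at 0.90. PGLYRP1, a peptidoglycan-binding protein of specific granules, was the closest to MMP9 at 0.93, before ADGRG3 at 0.91 and C3 at 0.90. Between the groups the log2 fold change was 1.36 ± 0.57 for C3 (edgeR adjusted p = 0.405), 1.48 ± 0.48 for CP (adjusted p = 0.268) and 1.36 ± 0.62 for PGLYRP1 (adjusted p = 0.458). By side it was 1.84 and 1.28 for C3, 1.44 and 1.55 for CP and 2.04 and 1.31 for PGLYRP1, for which limma-voom gave 2.05 ± 0.53 over all dogs (adjusted p = 0.114).

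The remaining members had other neighbours. CEBPE was close to PNPLA6 at 0.82 and to SLCO4C1 at 0.81. BPI was closest to ANPEP, an aminopeptidase on the surface of myeloid cells, at 0.91, to LYZ, the lysozyme gene, at 0.89 and to MMP19 at 0.89. SLPI was closest to NXPE3 at 0.72, PAQR8 at 0.72 and PTX3 at 0.68. LCN2 had no close neighbour, the highest being PYCR3 at 0.66, PINX1 at 0.62 and MEX3B at 0.62. All these genes were picked for their rho, which is therefore a description.

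Scores of cell markers, the mean centred log2 CPM of each list, were set beside the members in the same way, over 160 relations of 10 members and 16 lists, of which 44 passed after adjustment over the 160. The share of all tested genes called with each score was not determined. Counts of members called with a score are therefore a description and cannot be set against other genes. The mature neutrophil score was called with 5 members. Its rho was 0.65 with MMP8 (r = 0.67, adjusted permutation p = 0.0011 and 0.000753), 0.63 with LTF, 0.62 with MMP9, 0.55 with CEBPE and 0.47 with CD177. MPO, at rho = 0.33, CAMP, at 0.42, and SLPI, at 0.40, were not called with it. Within the cases and within the controls the rho of MMP8 with the score was 0.54 and 0.75, and that of LTF 0.40 and 0.77. Of these 5 relations, that of CD177 had r = 0.48, and 0.37 without the 2 dogs farthest from the median of the score.

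BPI was the only member called with the monocyte score, with rho = 0.78 and r = 0.82, and r was 0.80 without the 2 dogs farthest from the median of the score. Its rho with that score was 0.84 within the cases, 0.75 within the controls, and 0.71 and 0.68 on the 2 sides. With the mature neutrophil score its rho was 0.20, and it was not called. Like 6 of the other members it was called with the azurophil granule score, at rho = 0.54 and r = 0.57 (adjusted permutation p = 0.0101 and 0.00418), a count with no share over all genes beside it. It was called with the progenitor score at rho = 0.47 and r = 0.56 (adjusted permutation p = 0.0345 and 0.0045). So was CAMP, at rho = 0.47 (adjusted permutation p = 0.0302). By r, MPO, CD177, CAMP, LTF, MMP9 and SLPI were called with the progenitor score too. The sum of the monocyte markers was 1057 to 1808 CPM in the cases and 805 to 3013 CPM in the controls.

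LCN2 was called with the eosinophil score alone, at rho = -0.49 (adjusted permutation p = 0.0226), with r = -0.42 and an adjusted permutation p of 0.0539 for r. The erythroid score was called with LTF at rho = 0.51, MMP8 at 0.48 and MMP9 at 0.57, and these were -0.01, 0.08 and 0.18 within the cases and 0.56, 0.44 and 0.51 within the controls. The T cell score had a negative rho with CEBPE, -0.53, and with MMP8, -0.47. The platelet score was called with none of the members, the highest rho being 0.41 with MPO.

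The other genes of the granule pathways were taken from lists of genes that are no members, 1 for each kind of granule. Of the azurophil granule list 4 of 8 genes were tested, and 0 passed the adjusted threshold of edgeR, with 2 higher at an unadjusted p under 0.05. CTSG, the cathepsin G gene and also selected by the study, had the highest fold of this list. It stood at 0.278 to 4.76 CPM in the cases (median 1.79) and at 0 to 1.65 CPM in the controls (median 0.732). Its log2 fold change was 1.29 ± 0.34, and 1.97 and 1.16 by side, and 11 of 13 cases were above the control median. SRGN, the proteoglycan that packs granule proteins, had the lowest fold at -0.002, with a median of 271 CPM in the cases and 269 CPM in the controls.

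Within that list, DESeq2 called ELANE beside CTSG, which is no test of CTSG. ELANE, the neutrophil elastase gene, was too scarce for the filter of edgeR and is named after its values were seen. It had a median of 0.394 CPM in the cases, with a highest level of 2.56, and a median of 0.0925 CPM in the controls, with a highest level of 0.439. Its DESeq2 adjusted p was 0.0147.

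Of the specific granule list 11 of 14 genes were tested. None passed the adjusted threshold, 4 were higher in the cases at an unadjusted p under 0.05 and 0 lower, and the median log2 fold change was 0.26. PTX3 had the highest fold, 1.89 ± 0.74 (edgeR adjusted p = 0.362), which was 3.06 ± 0.81 with limma-voom (adjusted p = 0.115) and 2.38 ± 1.06 and 1.90 ± 0.94 by side, with a median of 2.40 CPM in the cases and 0.428 CPM in the controls. CHI3L1, which encodes a chitinase-like protein, had the lowest, -0.37 ± 0.40 (edgeR adjusted p = 0.812) and -1.14 and 0.07 by side, with medians of 2.81 and 2.40 CPM. The list thus held genes close to the members and genes that were level between the groups.

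The gelatinase granule and secretory vesicle list, which holds membrane proteins of the mature cell, had 6 tested genes and 0 calls at either threshold. Its log2 fold changes ran from -0.10 for ITGB2, an integrin chain, to 0.32 for FPR2, a receptor for bacterial peptides, with a median of 0.04, and of 0.12 and -0.02 by side. The 7 tested transcription factors of granulopoiesis likewise gave 0 calls at either threshold, from -0.09 for RUNX1 to 0.32 for KLF5 with a median of 0.12. Their mean level was called with 8 of the 10 members between dogs, with a rho from 0.57 with SLPI and 0.61 with MPO to 0.87 with MMP9, and it was not called with BPI, at 0.36, or with LCN2, at -0.37. The share of all tested genes called with this score was not determined, so the count is a description.

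Among 12 tested antiproteases other than SLPI, 0 passed the adjusted threshold and 1 was higher at an unadjusted p under 0.05. All 12 had a log2 fold change above 0, with a median of 0.17, where 45.5% of all tested genes were above 0. By side the median was 0.26 and 0.20. The folds of A2M, SERPINB6 and SERPINB10 were below 0 on the side rich in small RNA, and those of CSTB, SERPINB8 and TIMP2 on the other. Except for TIMP2, these genes were named after their values were seen. TIMP1, an inhibitor of metalloproteinases, had the highest, 0.67 ± 0.20 (edgeR adjusted p = 0.226) and 0.51 and 0.67 by side, at 206 to 713 CPM in the cases (median 325) and 129 to 436 CPM in the controls (median 196). TIMP2, another inhibitor of metalloproteinases, had the lowest at 0.01 ± 0.12, and its sign changed under several of the other settings.

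**Figure D5:**
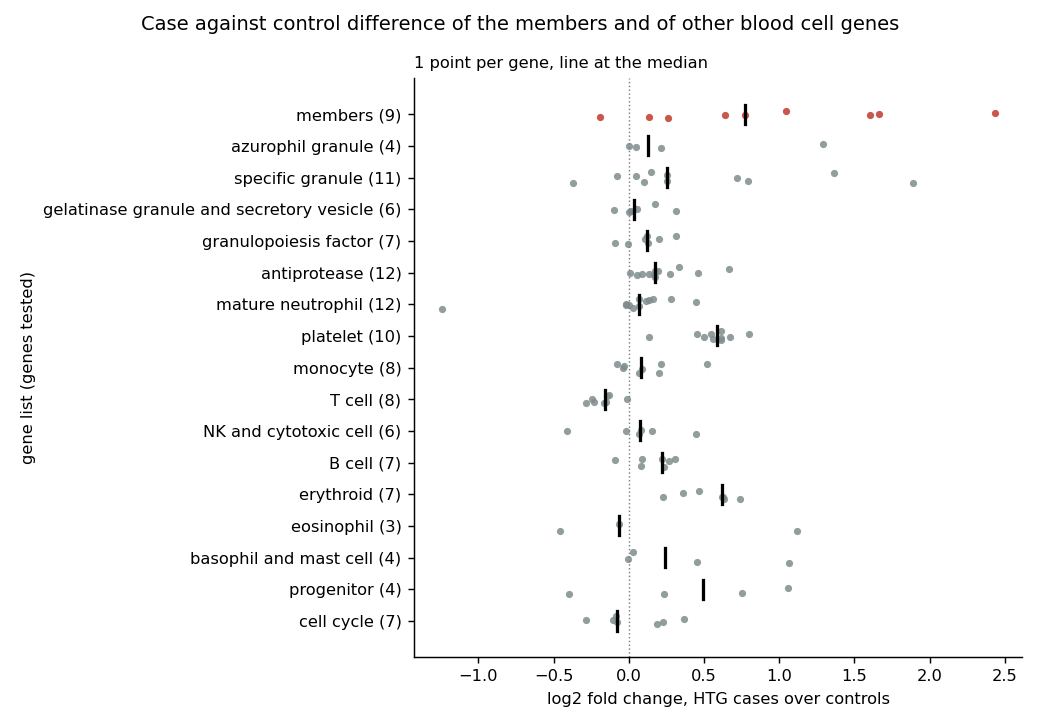
Log2 fold change of cases over controls for each tested gene of the members (red) and of the lists of granule, antiprotease and blood cell genes (grey), with a line at the median of each list and the number of tested genes in brackets. The median of the 9 members lies at 0.77, that of the specific granule list at 0.26 and that of the mature neutrophil list at 0.07.

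The markers of blood cells were compared in the same way. The 12 tested mature neutrophil markers had a median log2 fold change of 0.07, with 1 higher and 1 lower at an unadjusted p under 0.05, and CSF3R had -0.02 ± 0.14. Platelet markers had a median of 0.59, with 9 of 10 higher at an unadjusted p under 0.05 and 0 past the adjusted threshold, and their sum was 1247 to 5127 CPM in the cases and 897 to 5299 CPM in the controls. The 7 erythroid markers had a median of 0.62 with 0 calls at either threshold, and all 8 T cell markers were below 0, with a median of -0.16. The 4 progenitor markers had a median of 0.49, with 1 higher at an unadjusted p under 0.05. CD34, the highest of the 4 at 1.06, was also selected by the study, so its fold is no test. By side, with the one rich in small RNA first, the medians were 0.35 and 0.63 for platelet, 0.17 and 0.02 for mature neutrophil and -0.28 and -0.10 for T cell markers. They were of opposite sign for erythroid markers, at -0.13 and 0.76, and for progenitor markers, at -0.53 over 3 genes and 0.52 over 4, since CD34 was under the filter on the side rich in small RNA. No list was at 0 in every dog for any of its listed genes that were found. The part of these cells in the differences of the members was not tested. With the mature neutrophil score as a covariate 2 genes and 0 members passed, and 6 members and 1530 genes, or 11.0%, had an unadjusted p under 0.05. The members were chosen with this comparison in view, so nothing can be read from that count.

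Of the other lists, 5 of 8 monocyte markers were above 0, with a median log2 fold change of 0.08, and so were 4 of 6 markers of NK and cytotoxic cells, with 0.08, and 6 of 7 B cell markers, with 0.22. The median was -0.07 for 3 eosinophil markers, of which 1 was above 0, 0.24 for 4 markers of basophils and mast cells, of which 3 were above 0, and -0.08 for 7 cell cycle genes, of which 3 were above 0. By side, in the same order, the medians were -0.01 over 7 genes and 0.18 over 8 for monocytes, 0.75 and -0.11 for NK and cytotoxic cells, 0.51 and -0.01 for B cells, 1.06 and -0.79 for eosinophils, 0.70 and 0.23 for basophils and mast cells and -0.27 and 0.11 for the cell cycle. The sign therefore differed between the sides in 7 of the 11 lists of blood cell and cell cycle genes. By edgeR and by DESeq2, 0 genes of the 11 lists passed the adjusted threshold, and in the 6 lists named last 3 genes were higher and 1 was lower at an unadjusted p under 0.05. Among the 3 was GATA2 of the basophil list, also selected by the study, which is no test of it.

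The marker with the highest mean CPM did not always have a fold near that of its list. PPBP of platelets, at 0.14, and VCAN of monocytes, at -0.08, had the lowest fold of their lists, and MS4A2 of basophils, at -0.003, was the only one of its 4 below 0. FLT3 of progenitors had -0.40, while KIT, PROM1 and CD34 had 0.24, 0.75 and 1.06. ALOX15 of eosinophils had 1.12, while CCR3 had -0.07 and IL5RA -0.46. LCK of T cells had -0.17, ALAS2 of red cell precursors 0.63 and MKI67 of dividing cells -0.11, and GZMB of cytotoxic cells, at 0.45, and BANK1 of B cells, at 0.31, had the highest fold of their lists. GATA2, KIT, PROM1, CD34, CCR3 and IL5RA were named after their values were seen.

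Sex was not used to choose the genes, and it was compared with the group as a covariate. The female minus male log2 fold changes of the 9 tested members lay between -0.55 for MPO and 0.26 for LCN2, and 0 of the 9 passed, with 17 genes or 0.122% called over the table. At an unadjusted p under 0.05, 680 genes, or 4.89%, and 0 of the 9 members passed. The medians were 8.71 CPM in females and 24.5 CPM in males for CAMP, and 490 and 541 CPM for LTF (edgeR adjusted p = 0.998 for each).

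The difference between cases and controls was then compared between the sexes. For MPO it was 1.91 ± 0.86 in females and 2.63 ± 0.74 in males, for CAMP 1.20 ± 1.12 and 1.86 ± 0.96, and for MMP8 1.01 ± 0.87 and 0.40 ± 0.74. The interaction of sex and group was called for 0 of the 9 members and 0 genes of the table, or 0.00%, by edgeR, with 547 genes or 3.93% at an unadjusted p under 0.05 and the members' unadjusted p between 0.387 and 0.898, and DESeq2 called 0 genes with 843 at an unadjusted p under 0.05. With standard errors of 0.27 to 1.50 for the interaction, differences between the sexes of the size of most members' folds were not detectable. For MPO, with the largest fold at 2.43, the standard error of the interaction was 1.15.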

How the data were processed

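Whole-blood RNA of 31 dogs was sequenced. The paper and a label describe removal of ribosomal RNA with a stranded total RNA kit, while another label gives the molecule as polyA RNA, and labels and paper name different extraction kits. Which holds was not settled here. After trimming in Trimmomatic and alignment to the Dog10K_Boxer_Tasha genome by HISAT2, the authors deposited counts of read pairs per gene, not normalized, for which both mates had to map. The counting program and the annotation are not given in the sources used here, and the counts carry no gene coordinates or lengths, so levels are compared between dogs, and CPM orders genes of a list only for the choice of markers to name. No sequence is printed because none was used here. The study's alignment statistics list multiply mapped reads as unassigned.

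Groups and sexes came from the labels. Counts were scaled by TMM in edgeR 4.0.16 under R 4.3.3 and filtered with filterByExpr by group before glmQLFit and glmQLFTest were run on all 13918 remaining genes, with Benjamini-Hochberg adjustment and a threshold of 0.05. Log2 CPM had a prior count of 2. No batch term was fitted, since the labels leave the pilot dogs unnamed. Alternatives were DESeq2 1.42.0, limma-voom 3.58.1, other normalizations, filters, covariates and subsets of dogs. Limits for counts of 0 use 3 counts and cover counting error only. Permutation tests ran in Python 3.11.15 with numpy 2.4.6. Both scripts were tested on simulated data. The members, gene lists and tests were chosen with earlier results of these data known. The genes named were all members, the genes with the lowest and the highest fold of each pathway list, the gene of each marker list with the highest mean CPM, which is not corrected for length, and the 3 genes most like each member, with the exceptions stated, and some genes under this rule are not reported here.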

Additional observations from a re-analysis of the deposited data

How the results depend on the processing

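The edgeR count of 5 genes between cases and controls was 85 with DESeq2, 0 with limma-voom (1556 at an unadjusted p under 0.05), 1 with at least 10 counts in every dog, 110 with DESeq2 and the small RNA split, 0 on either side of the split alone (518 and 1510 unadjusted), 2 with the mature neutrophil score, and 28 without case 1 and control 3. The count of members called, 0 in edgeR, was 2 with DESeq2 and with DESeq2 and the split (MPO and SLPI) and 1 without case 1 and control 3. Leaving out 1 dog at a time, the genes called ran from 1 without case 1 to 154 without control 3, and the members called from 0 to 1, with MPO passing without case 12 or control 3 and SLPI without case 8, both genes the study selected on this comparison, so that these calls are no test of them. SLPI passed the filter in some of these fits only. Between females and males, 17 genes became 27 with DESeq2, and the pairs of members called, 28, ran from 19 to 30. The dog numbers shared by a case and a control paired nothing, since the deviations of 13 such pairs correlated at -0.44 to 0.26 and 3 exceeded 0.1. With a replicate block 0 genes and 0 members were called, against 0 genes among the same 26 dogs unpaired, a setting chosen after seeing the data, and 1 dog correlated best with its own number. Log2 fold changes that changed sign were all of genes not called. SRGN was 0.023 with limma-voom, 0.011 with sex, 0.16 on the high side and 0.0073 without case 1 and control 3. CSF3R was 0.014 with limma-voom, 0.033 on the low side and 0.018 without those 2 dogs, and VCAN was 0.0043 with limma-voom and 0.26 on the high side. TIMP2 was -0.0072 with upper quartile normalization, -0.039 with the split in edgeR, -0.037 with it in DESeq2, -0.038 with the neutrophil score, -0.13 on the low side, -0.032 with the replicate block and -0.029 unpaired. MS4A2 was 0.013 with the split in edgeR, 0.011 with it in DESeq2, 0.15 on the low side and 0.033 unpaired. On the high side LCN2 was 0.040, PPBP -0.067, ALAS2 -0.28 and ANPEP -0.072, and LCN2 was 0.068 in the 26 dogs unpaired. On the low side CEBPE was -0.12, CHI3L1 0.073 and SLCO4C1 -0.060. With the split as a covariate, LTF was -0.047 for females over males and CEBPE -0.00032 for the interaction. The causes were not tested. Low counts limit MPO and SLPI most.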
